A study of Mus musculus with 2 samples.

Results

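The cells described here are the barcodes of the mouse adrenal gland that carried transcripts of mast cells or basophils. A barcode was a member when it held at least 200 genes, at most 15% mitochondrial UMIs (unique molecular identifiers, each counting 1 captured transcript), at least 3 UMIs summed over the 7 genes Cpa3, Mcpt4, Cma1, Tpsb2, Mcpt8, Fcer1a and Ms4a2, at most 2 UMIs of the complement genes C1qa, C1qb and C1qc, and no UMI of Cd79a or Cd3e. Of the 6319 barcodes that passed the filters, 90 were members, 66 of 3817 in the female and 24 of 2502 in the male library. These 90 cells were not 1 kind of cell: 59 of them carried transcripts of natural killer (NK) cells and were members through Cma1 alone or nearly so, and 31 carried the mast cell genes.

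The study sorted live CD45+ cells, that is immune cells, from adrenal glands of C57Bl/6 mice aged 7 weeks. It made 1 droplet library from females and 1 from males. No agent or altered allele is given for either group, both are called by sex alone, and the number of animals behind a library is not given. With 1 library a sex, no test between the sexes was possible. All intervals are 95% intervals and cover counting error only, and cells of 1 library are not replicates.

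Mast cells are tissue cells that store histamine, heparin and proteases in granules and release them when antigen cross-links IgE bound to their high-affinity receptor. Connective tissue mast cells hold chymases, tryptases and carboxypeptidase A together, whereas mucosal mast cells are known for the chymases Mcpt1 and Mcpt2. Basophils are short-lived blood granulocytes that share the IgE receptor with mast cells but are marked in the mouse by the proteases Mcpt8 and Prss34.

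The libraries held 16218309 female and 9512670 male UMIs, with medians of 3539 and 3021.5 UMIs per barcode that passed. The 2 libraries had 2 barcode sequences in common, and neither belonged to a member. Xist, the RNA of the inactive X chromosome, was detected in 52 of the 66 female members and in 0 of the 24 male members.

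The first question was which cells the rule had gathered. All 59 cells with NK transcripts held between 29 and 195 UMIs of a list of 7 NK cell genes, including the cytotoxic proteins Gzma and Prf1 and the receptor Ncr1, with a median of 75. The other 31 cells held between 0 and 2, and 24 of them held 0. No member lay between 2 and 29, so the division at 10 UMIs, which was chosen after the values were seen, left no cell near it. The 2 groups are called NK-gene members and mast-gene members below. The NK-gene members held between 3 and 10 UMIs of the 7 rule genes with a median of 3, whereas the mast-gene members held between 4 and 402 with a median of 109.

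**Figure D1:**
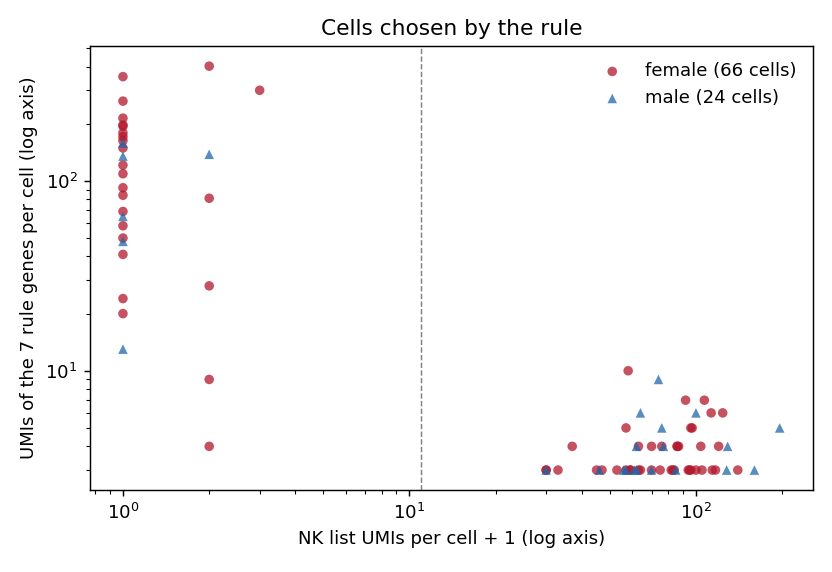
UMIs of the 7 rule genes against UMIs of the NK cell list, plus 1, in each of the 66 female (circles) and 24 male (triangles) members, both axes logarithmic; the dashed line marks 10 UMIs of the list. The 59 NK-gene members lie at the right with 3 to 10 rule UMIs, and the 31 mast-gene members at the left with 4 to 402.

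For 59 of the 90 cells (65.6%) the label of mast cell or basophil therefore went against the data. In these NK-gene members Cma1, which encodes mast cell chymase, was the only rule gene in 58 of 59 cells, and the remaining cell had 1 further UMI of Cpa3. The 59 cells together held 231 UMIs of Cma1, 1 of Cpa3 and none of Mcpt4, Tpsb2, Mcpt8, Fcer1a, Ms4a2 or Mcpt2. The mast-gene members by contrast held 1593 UMIs of Cma1 beside 1229 of Cpa3.

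The threshold of the rule ran through the NK-gene cells. With the exclusions applied, 34 cells held exactly 3 rule UMIs, and all 34 had at least 10 UMIs of the NK list. Just outside, 49 cells held 2 rule UMIs, of which 43 had the NK list and 6 held Cpa3. Among barcodes with at least 3 rule UMIs that passed the filters, 13 were kept out by the complement, B cell or T cell genes, and 4 of these held Cpa3. A further 4 barcodes with at least 3 rule UMIs failed the filters, and all 4 held Cpa3.

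By the split that the rule asked for, 81 members held Mcpt4, Cma1 or Tpsb2 without Mcpt8, of which 59 were NK-gene members. Only 1 cell held Mcpt8 without the other 3 genes, 7 held both kinds and 1 held neither. All 8 cells with Mcpt8 were mast-gene members.

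As a share of all barcodes that passed, members were 1.73% (1.34 to 2.19) of the female and 0.959% (0.616 to 1.42) of the male library, a difference of 0.770 percentage points (0.178 to 1.33). That interval reached below 0 with a mitochondrial ceiling of 5% (-0.0132 to 1.27) or 1.2% (-0.779 to 2.40), and with at least 5 rule UMIs (-0.0245 to 0.793). Mast-gene members were 0.655% (0.424 to 0.965) of the female library with 25 cells and 0.240% (0.0881 to 0.521) of the male library with 6 cells. The difference in mast-gene members was 0.415 points (0.0627 to 0.751). A mitochondrial ceiling of 5% left 13 of these 31 cells. Of the male members, only male cells 3, 5 and 6 were left. The difference was not recomputed at that ceiling, so it is not known to hold there. NK-gene members were 1.07% (0.772 to 1.45) and 0.719% (0.427 to 1.13) with 41 and 18 cells, a difference of 0.355 points whose interval ran from -0.147 to 0.817. With 1 library a sex, sex and library cannot be told apart.

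The mast-gene members were checked first against 6 mast cell markers that the rule had not used. Kit, the receptor for stem cell factor on which mast cells depend, was detected in 26 of the 31 cells. Hdc, which makes histamine, was detected in 23 cells, and Slc18a2, which loads amines into granules, in 20. Mrgprb2 and Mrgprb1, receptors of the Mas-related family typical of connective tissue mast cells, were detected in 14 and 8 cells, and the tryptase Tpsab1 in 12. Of the 31 cells, 23 held at least 3 of these 6 markers and 1 held none. Of basophil markers, Mcpt8, a rule gene, gave 75 UMIs in 8 of the 31 cells, with 41 in 1 of them. Prss34 gave 1 UMI in 1 cell, Il3ra, the receptor for interleukin-3, gave 3 UMIs in 3 cells, and Itga2 gave 4 in 4 cells. Cd200r3 and Gata2, of the same basophil markers but shared with mast cells, were detected in 18 and 21 cells. The 6 mast cell markers could not be compared with separate basophils here.

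Lists of markers of other cells were counted in each mast-gene member. The NK list had made the division, and the rule limited Cd3e, Cd79a and the C1q genes of the T cell, B cell and macrophage lists. Low counts of those lists therefore restate the choice in part and are not a test of purity. The NK list ranged from 0 to 2 UMIs per cell, the T cell list from 0 to 1, the B cell list from 0 to 2 and the macrophage list from 0 to 10. The neutrophil list had a median of 0 but reached 130 in female cell 25, which held 49 UMIs of S100a8 beside 2 of Cpa3 and 2 of Cma1. This barcode had the fewest rule UMIs of the group, 4, and without it 30 mast-gene members remained. The type 2 innate lymphoid cell list, which holds Il1rl1, had a median of 5 UMIs and a highest of 24, at 2191 CPM (UMIs scaled to a common total) in female and 1570 in male members, against 318 and 236 in other cells. The adrenal endocrine list, which holds Cyp11a1, stood at 646 and 879 CPM against 102 and 129, and the platelet list, which holds Itga2b, at 225 and 565 against 117 and 269. The mast-gene members held a median of 2185 UMIs (616 to 8808) and 5.20% mitochondrial UMIs, against 3377 UMIs and 3.13% in other cells, and 18 of the 31 exceeded 5% mitochondrial UMIs. In the comparison with other cells given below, a mitochondrial ceiling of 5% left 13 mast-gene members, with 55 higher and 57 lower of 722 genes. Without female cell 25 there were 100 higher and 128 lower genes, against 98 and 125 with all 31 cells. The part of the other lists and of the lower depth in the results was not tested.

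Levels are given as CPM, the UMIs of a gene scaled to a common total of UMIs in each group. They are not scaled for gene length, because the method reads 1 end of each transcript. The rule genes chose these cells, so their levels describe the choice and are not results. Cpa3, the carboxypeptidase of mast cell granules, reached 14704 CPM (13826 to 15622) in female and 11431 (9830 to 13217) in male mast-gene members, against 2.52 and 3.36 in other cells. Every one of the 31 cells held it, with between 2 and 111 UMIs. Cma1 reached 19549 and 12624 CPM and was detected in 28 cells. Tpsb2, a tryptase, reached 8553 and 4334 CPM and was detected in 19 cells. Mcpt4, a chymase of connective tissue mast cells, reached 2767 and 3329 CPM and was detected in 10 cells, 3 of which held 66.4% of its UMIs. The subunits of the IgE receptor that the rule used, Fcer1a and Ms4a2, were detected in 13 and 18 cells.

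In B cells of the same libraries, which should lack these genes, 443 female cells held 10 UMIs of Cma1, 1 of Tpsb2 and 0 of Cpa3, and 215 male cells held 10, 7 and 3. In the male library 7, 6 and 2 of these UMIs lay in 1 barcode, and without it 3, 1 and 1 remained in the other B cells.

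Cma1, Mcpt4, Mcpt8 and Mcpt2 lie in 1 cluster of protease genes on chromosome 14 of the mouse genome (GRCm38), Cma1 at chr14:55941451-55944675, Mcpt2 at chr14:56042041-56044642, Mcpt4 at chr14:56059629-56062313 and Mcpt8 at chr14:56082166-56085273. Cpa3 lies at chr3:20215620-20242181 and Tpsb2 at chr17:25366305-25369098. Because neighbours in such families are alike, their transcripts were compared, and no stretch of 55 bases, the length of the sequenced read, was shared between Cma1 and Cma2, Mcpt2, Mcpt4, Gzma or Gzmb, between Mcpt2 and Mcpt1, Mcpt4 or Mcpt9, between Mcpt8 and Mcpt4 or Gzmb, or between Tpsb2 and Tpsab1.

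The promoters of 4 of these genes are shown because their transcripts were combined differently in the members: Cpa3 in all mast-gene members, Cma1 also in the NK-gene members, and Mcpt4 and Mcpt8 in some mast-gene members only. Each runs from 250 bases before to 50 after the start site on the minus strand, from RefSeq (GRCm38.p6), at chr3:20242132-20242431, chr14:55944626-55944925, chr14:56062261-56062560 and chr14:56085148-56085447 in that order. Capitals mark matches on either strand to the GATA letters AGATAA, to the variant AGATAG, or to the forms that begin with T, which are TGATAA and the variant TGATAG.
Cpa3: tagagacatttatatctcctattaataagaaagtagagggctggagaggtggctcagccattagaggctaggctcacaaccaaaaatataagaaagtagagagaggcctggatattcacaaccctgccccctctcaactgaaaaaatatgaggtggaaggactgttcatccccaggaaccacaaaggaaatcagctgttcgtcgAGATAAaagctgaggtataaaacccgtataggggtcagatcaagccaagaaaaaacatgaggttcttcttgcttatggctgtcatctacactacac
Cma1: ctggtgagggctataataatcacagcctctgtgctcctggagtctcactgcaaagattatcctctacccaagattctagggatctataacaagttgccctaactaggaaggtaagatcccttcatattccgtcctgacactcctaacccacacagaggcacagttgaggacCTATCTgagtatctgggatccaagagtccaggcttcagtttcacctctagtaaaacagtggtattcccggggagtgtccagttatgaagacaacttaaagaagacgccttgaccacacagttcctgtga
Mcpt4: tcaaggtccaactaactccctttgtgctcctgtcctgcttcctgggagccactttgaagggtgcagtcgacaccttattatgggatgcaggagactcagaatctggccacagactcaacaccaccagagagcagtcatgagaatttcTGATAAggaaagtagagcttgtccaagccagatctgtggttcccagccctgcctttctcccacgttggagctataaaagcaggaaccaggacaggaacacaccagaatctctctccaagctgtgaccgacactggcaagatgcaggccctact
Mcpt8: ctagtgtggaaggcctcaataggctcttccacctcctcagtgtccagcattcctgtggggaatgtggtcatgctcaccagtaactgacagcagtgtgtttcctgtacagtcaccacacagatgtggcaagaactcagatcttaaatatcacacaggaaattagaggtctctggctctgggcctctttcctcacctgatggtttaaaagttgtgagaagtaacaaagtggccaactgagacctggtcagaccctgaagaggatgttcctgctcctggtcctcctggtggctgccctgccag
Of the 7 rule genes 6 had a promoter in the table, and 5 of these held a GATA hexamer, against 29.8% of all 32851 promoters. The match began at position -46 from the start site in Cpa3, at -79 in Cma1 and at -103 in Mcpt4, and the Mcpt8 window held none. The letters TGTGGT, a RUNX match, on either strand were held by 5 of the 6, against 16.8% of all promoters, and AGGTGT, a T-box match, by 2 of the 6, against 13.7%. A match describes the letters only.

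The next comparison was between the mast-gene members and all other cells, gene by gene. It was made in each library with 20 CPM added to both sides, for the 1704 genes outside the rule that had at least 10 UMIs in the members or were expected to. A gene was counted when it passed 4-fold in both libraries. Genes scarce in other cells could enter only through their UMIs in the members. Numbers of higher genes in the lists below are therefore not read as support. In this comparison 98 genes were higher (5.75%) and 125 were lower (7.34%). The cells were chosen on measured genes of the same comparison, so the counts are a description and no test was made. A lower call needed at least 60 CPM in other cells, and 1 UMI was worth 62.8 CPM in the male members, so the 125 lower genes are not a full count. A lower call allowed no male UMI for a gene at 200 CPM in other cells and at most 1 at 500 CPM, where equal levels would give about 3.18 and 7.96 UMIs. For genes up to such levels, passing in neither direction does not show that levels were alike. With 80 CPM added in place of 20, 33 genes were higher and 44 were lower, and with a mitochondrial ceiling of 5% the counts were 55 and 57 of 722 genes. Without the cell that held most UMIs of the gene, left out in each library in turn, 63 of the 98 stayed past 4-fold. Of the genes named below, Mcpt2, Mrgprb1, Tpsab1, Slc6a4, Hpgds and Egr1 did not stay, each without 1 male cell. Ikzf2 did not stay without 1 female cell. Slc6a4 and Egr1 also failed in the female library, each without 1 female cell.

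Among proteases outside the rule, Mcpt2 was the highest. It reached 22329 CPM (21245 to 23454) in female and 2575 (1848 to 3493) in male mast-gene members, with 1590 and 41 UMIs, against 1.33 CPM in other female cells and no UMI in other male cells. It was held by 9 of the 31 cells, and the 3 highest held 86.0% of its UMIs. Those were female cell 4 with 667 UMIs, female cell 12 with 623 and female cell 3 with 113. The other 6 cells held 62, 50, 48, 41, 21 and 6 UMIs, the cell with 41 being the male one. All 9 held Kit. Mcpt1, the other mucosal chymase, gave 6 UMIs in 1 cell, and Mcpt9 gave 2 in 1 cell. The tryptases Tpsab1 and Tpsg1 were detected in 12 and 13 cells, with 37 and 28 UMIs in female and 1 and 7 in male members.

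The list of connective tissue mast cell genes held 10, of which 4 are rule genes and 5 could be compared. Hdc, Kit, Mrgprb1, Mrgprb2 and Tpsab1 could be compared through their UMIs in the members and were higher, so their number is not read as support. Of 5 mucosal mast cell genes 2 could be compared and 1 was higher, which was Mcpt2, and the integrin Itgb7 did not pass. Of 13 basophil genes 6 could be compared and 3 were higher, Cd200r3, Cd63 and Gata2, none of which is particular to basophils. These lists were chosen with earlier results of these data known. Over all 1704 genes the median log2 ratio was 0.12 in the female and -0.02 in the male library.

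The genes of amine storage were among those farthest above other cells. Hdc reached 1629 CPM (1346 to 1954) in female and 1633 (1067 to 2393) in male members, against 7.07 and 9.75 CPM in other cells. Slc18a2 reached 492 (342 to 684) and 628 (301 to 1155) CPM, with 19 UMIs in all other female and 16 in all other male cells. Tph1, which starts serotonin synthesis, was detected in 13 cells with 41 UMIs in female and 3 in male members. Of the 9 storage and amine genes compared, 4 were higher (Hdc, Slc18a2, Slc6a4 and Tph1), 1 was lower (Lyz2) and 4 passed in neither direction. Among the latter was Srgn, the proteoglycan core of the granule, at 2696 and 2512 CPM against 768 and 662. Hdc, Slc18a2 and Slc6a4 entered through their UMIs in the members, so the number of higher genes is not read as support.

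Of the IgE receptor, the subunit Fcer1g lay outside the rule. Fcer1g, the signalling chain that macrophages and NK cells also use, was detected in 30 of 31 cells and reached 2205 and 2575 CPM, against 1903 and 1988 CPM in other cells, a ratio of 1.16 (0.984 to 1.36) and 1.30 (0.929 to 1.76). Lat2 and Cd63 were the only 2 of 10 genes of the receptor and its signalling outside the rule that were higher, and 8 passed in neither direction. Cd63, a granule membrane protein, reached 2415 CPM in female and 2198 in male members.

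Kit reached 1952 CPM (1641 to 2305) and 2261 (1584 to 3130), against 9.09 and 6.93 CPM in other cells, and its 31 values ran from 0 to 17 UMIs with a median of 4. Il1rl1, the receptor for interleukin-33, was detected in 29 of 31 cells and reached 2121 CPM (1796 to 2487) and 1507 (966 to 2243), against 575 and 398 CPM in reference group 2 innate lymphoid cells, which also use it. Of 5 growth factor and cytokine receptors compared, Csf2rb was the third that was higher, while Ifngr1 was lower and Csf2rb2 passed in neither direction. Ptprc, which encodes the CD45 antigen used in the sort, lay below other cells in mast-gene members, at 421 CPM (284 to 601) against 1080 in other female cells and 188 (38.9 to 551) against 1027 in other male cells, without passing 4-fold in both libraries. It gave at least 1 UMI in 19 of the 31 cells.

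Of 11 transcription factors compared, 4 were higher, a number that is not read as support for the reason given above. Gata2, which mast cells need, reached 674 CPM (497 to 894) and 1005 (574 to 1632), against 0.884 and 1.08 CPM in other cells. Mitf, Tal1 and Ikzf2 were the others, and Irf8, a factor of monocytes and dendritic cells, was lower. Of the exocytosis genes, Rab27b, Rab44 and Stx3 were higher and 3 passed in neither direction.

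For lipid mediators, Alox5, which begins leukotriene synthesis, and Hpgds, which makes prostaglandin D2, were higher, as was Cyp11a1. Alox5 reached 885 and 314 CPM, against 16.3 and 15.8 in other cells. Cyp11a1 encodes the enzyme that turns cholesterol into pregnenolone, the first step of steroid synthesis in adrenal cortex. It reached 632 CPM (461 to 846) with 45 UMIs in 17 of 25 female members, and 754 (389 to 1317) with 12 UMIs in 4 of 6 male members, against 15.8 and 25.3 CPM in other cells. The other adrenal steroid genes examined, Star, Cyp21a1, Cyp11b1 and Hsd3b1, together gave 1 UMI in the female and 2 in the male mast-gene members. In other cells the order was the opposite, with 251 UMIs of Cyp11a1 beside 1258 of those genes in the female and 234 beside 877 in the male library. In B cells Cyp11a1 gave 10 UMIs beside 41 in the female and 5 beside 20 in the male library.

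**Figure D2:**
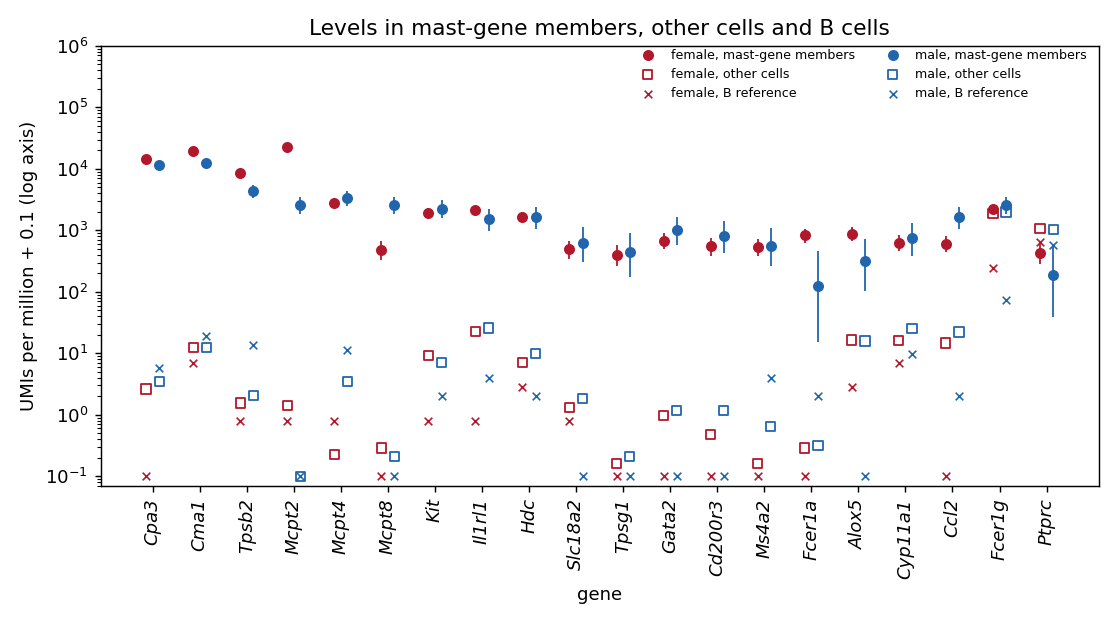
Levels of 20 genes in CPM, plus 0.1, on a logarithmic axis, in mast-gene members (filled circles with 95% Poisson intervals), other cells (open squares) and reference B cells (crosses), for the female (red) and male (blue) library. The values for Kit (1952 and 2261) lie above those of other cells (9.09 and 6.93), those for Fcer1g lie close to other cells, and those for Ptprc lie below.

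Few cytokine genes were high enough to compare. Ccl2, a chemokine for monocytes, was higher, at 604 CPM (437 to 813) in female and 1633 (1067 to 2393) in male members, against 14.6 and 22.1 in other cells. It was detected in 17 cells, of which 3 held 62.3% of its UMIs. Ccl6 was lower, and 6 others passed in neither direction. Il4 gave 11 female and 1 male UMIs, Il6 gave 4 and 1, and Il13 gave none. Tnf gave 2 UMIs in female members and 14 in the male members, all 14 in male cell 3.

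Fos, an immediate early gene that tissue dissociation is known to raise, was concentrated in few cells. It gave 56 UMIs in the 6 male members, of which 33 were in male cell 5 and 19 in male cell 3, and 10 UMIs in the 25 female members. Of 9 immediate early genes, 2 were higher, Egr1 and Ier3. None of 7 glucocorticoid-responsive genes, such as Tsc22d3 and Fkbp5, passed 4-fold in either direction. Of 9 receptors of the G protein coupled and inhibitory list, Cd200r3, Lilr4b, Mrgprb1 and Mrgprb2 were higher and Ccr2 was lower, and of 10 adhesion genes Cd34 and Itga2b were higher and Itgal was lower.

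Outside the lists, the genes with the largest ratios in both libraries included Scin, which encodes an actin-severing protein, with 28 and 9 UMIs, the flippase gene Atp8b5 with 26 and 9, the protease inhibitor gene Serpinb1a with 98 and 13, Tmem158 with 29 and 5 and Tns1 with 36 and 11. Serpinb1a reached 1376 CPM (1117 to 1677) and 816 (435 to 1396), against 28.1 and 26.5 in other cells. Of the markers of other cells that could be compared, 4 of 4 B cell, 4 of 4 T cell, 4 of 5 NK cell, 3 of 3 dendritic cell and 2 of 3 macrophage genes were lower. The NK cell genes are those that divided the members, so their lower levels restate that division. The rule had also kept out cells with B cell, T cell or complement genes. None of 3 neutrophil, 2 type 2 innate lymphoid cell and 2 platelet genes was lower, and Il1rl1, Itga2b and the adrenal endocrine gene Cyp11a1 were higher. The lowest of all were the immunoglobulin gene Igkc, the MHC class II genes Cd74, H2-Aa, H2-Ab1 and H2-Eb1, the myeloid genes Lyz2, Ctss and Ifi27l2a, and the lymphocyte genes Ccl5 and Gzma. Cd74 gave 70.2 CPM in female and 188 in male members, against 6084 and 10514 in other cells.

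The same comparison over all 90 members mixed the 2 groups. Of 5076 genes, 24 were higher (0.473%) and 107 were lower (2.11%). The 15 highest held both mast cell genes such as Mcpt2, Kit, Hdc and Gata2, and NK genes such as Gzma, Prf1, Klra8 and Klra4.

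Mcpt8 was the only basophil protease with more than 1 UMI. It was held by 8 cells, with 41, 15, 9, 3, 3, 2, 1 and 1 UMIs, the cell with 41 being male cell 2. All 8 also held Cpa3 and Kit, and 7 of them held Cma1. The remaining 1, female cell 20, was the cell with Mcpt8 and no Mcpt4, Cma1 or Tpsb2, and it held 33 UMIs of Cpa3, 3 of Mcpt8, 5 of Ms4a2 and 12 of Kit. Male cell 2 held 38 UMIs of Cpa3, 54 of Cma1, 13 of Kit, 12 of Hdc and 1 of Prss34. No cell thus carried the basophil proteases without the mast cell gene Kit. Cpa3 was a rule gene for mast cells and basophils together, so holding it does not tell them apart. The comparison planned between a mast subset and an Mcpt8 subset was not made, since the latter was 1 cell.

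Among the mast-gene members, cells with and without Tpsb2 differed in other genes. This division was also chosen after the values were seen. It put 19 cells with 36268 UMIs on one side and 12 cells with 50861 UMIs on the other. The cells with Tpsb2 were shallower, with a median of 1403 UMIs against 5322, and the part of depth in what follows was not tested. Of 1390 genes compared with 50 CPM added, 30 were at least 4-fold higher in the cells with Tpsb2 (2.16%) and 20 were lower (1.44%). Without the cell that held most UMIs of the gene, 18 of the 30 and 10 of the 20 stayed past 4-fold. Which direction had more genes depended on the setting, with 44 higher and 50 lower at 0.25 of the added CPM, 9 and 5 at 200 CPM, 35 and 40 with equal weight for each cell, and 26 and 29 in the female library alone.

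Genes higher with Tpsb2 included Mrgprb2, Mrgprb1 and Tpsab1 of the connective tissue list, whereas Kit passed in neither direction. Mrgprb2 gave 33 UMIs in 13 of 19 cells with Tpsb2 and 1 UMI in 1 of 12 without. Mrgprb1 gave 25 UMIs in 8 cells and 0 in the cells without. Tpsab1 gave 37 UMIs in 11 cells and 1 in 1 cell, and Tpsg1 34 in 12 cells and 1 in 1 cell. Tph1 gave 40 UMIs in 11 cells and 4 in 2 cells. Pla2g7 gave 25 and 1 UMIs, and Hpgd, which breaks down prostaglandins, and Calca, which encodes calcitonin and CGRP, gave 19 UMIs each in 4 cells and 0 without. Female cell 6 held 14 of the 19 UMIs of Calca, which did not stay past 4-fold without it. Fos was also higher, with 60 and 6 UMIs, in 4 cells on each side. Male cells 5 and 3 held 52 of the 60, and without them 8 UMIs remained, or 278 CPM against 118, which is not past 4-fold.

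Among genes lower with Tpsb2, Mcpt2 gave 201 UMIs in 4 of 19 cells, or 5542 CPM, and 1430 in 5 of 12, or 28116 CPM. Female cells 4 and 12 held 1290 of the 1430, and without them 140 UMIs remained, or 3856 CPM, so that the direction turned. Without female cell 4 alone Mcpt2 was no longer past 4-fold. Mcpt8, a rule gene, gave 2 UMIs in 1 cell and 73 in 7 cells. Gzmb, a granzyme that mast cells also express, gave 5 UMIs in 2 cells and 96 in 8 cells. Scin gave 2 and 35 UMIs, the integrin Itga4 2 and 27 and the cell cycle kinase Cdk6 0 and 16. S100a8, S100a9 and Retnlg were also lower, and all 49 UMIs of S100a8 in the cells without Tpsb2 were in female cell 25, without which none of the 3 passed. Kit, at 1710 and 2222 CPM, Il1rl1, at 2096 and 1946, and Cd63, at 2482 and 2300, passed in neither direction.

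**Figure D3:**
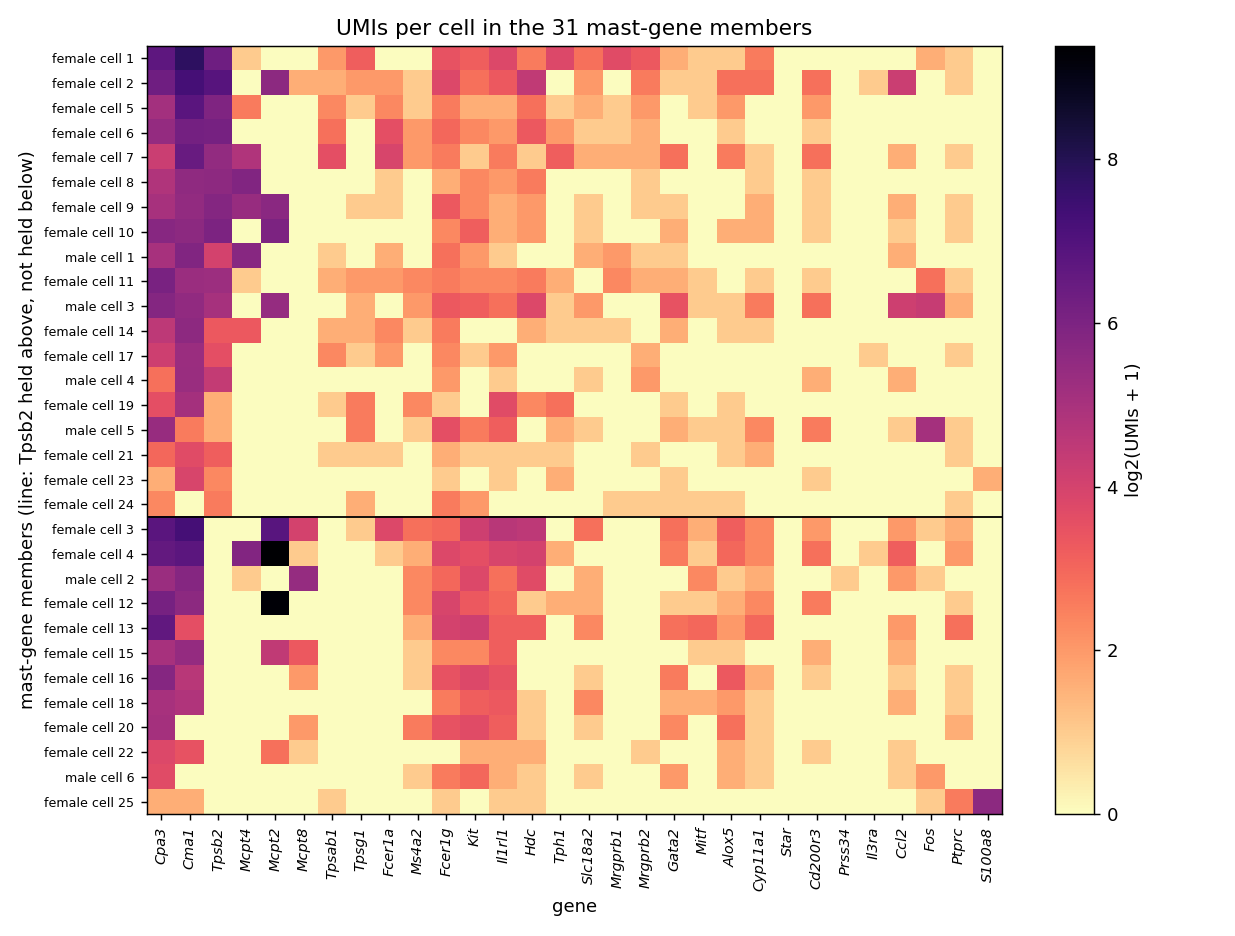
UMIs per cell, as log2 of UMIs plus 1, for 30 genes (columns) in the 31 mast-gene members (rows), those with Tpsb2 above the line and those without below, ordered by rule UMIs. Mrgprb1, Mrgprb2, Tpsab1 and Tph1 lie mostly above the line, Mcpt8 mostly below, and Star is 0 in every cell.

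The last group was the 59 NK-gene members. They were set beside 1015 other cells with at least 10 UMIs of the NK list and the same exclusions, to see whether they differed beyond Cma1. The NK-gene members had a median of 3103 UMIs per cell and the other cells 4524. The comparison covered 1836 genes with 20 CPM added, of which 35 were at least 2-fold higher in both libraries (1.91%) and 30 were lower (1.63%).

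Zeb2 led the genes that were higher when they were ordered by the lower of their ratios in the 2 libraries with 20 CPM added. The genes are named by that order and belong to no fixed list. Without the added CPM, Cx3cr1 had a larger ratio than Zeb2 in the female library, 10.1 against 4.00. Zeb2, a factor of terminal maturation, reached 732 CPM against 183 in the female and 1100 against 129 in the male library, ratios of 4.00 and 8.50. Itgam, the CD11b integrin that marks mature NK cells, reached 251 against 59.2 and 390 against 69.0 CPM. S1pr5, which leads NK cells out of bone marrow, reached 200 against 36.3 and 167 against 37.3. Klf2, Cx3cr1 and Lgals1 were higher in the same way, and so were Borcs7, at 266 against 52.8 and 223 against 47.0 CPM, and As3mt, at 192 against 29.9 and 139 against 32.4. Prf1, which counts among the NK list, reached 1242 against 401 and 1615 against 452 CPM. Xcl1, of the same list, lay the other way, at 916 against 2007 CPM in the female and 529 against 2442 in the male library. Eomes, a transcription factor of NK cells, did not pass, at 207 against 137 and 251 against 144 CPM.

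Genes lower with Cma1 included Itga1, the CD49a integrin of tissue-resident group 1 innate lymphoid cells, with 7.39 CPM against 180 in the female library and no UMI against 177 CPM in the male. Cxcr6, a chemokine receptor of resident lymphocytes, reached 7.39 against 122 CPM in the female library, and no UMI against 166 CPM in the male. Ltb gave 37.0 against 393 CPM and no UMI against 451. Gzmc gave no UMI in members of either library, against 183 and 168 CPM. Cd7 reached 163 against 1093 and 55.7 against 1041. The haemoglobin genes Hbb-bs, Hba-a1 and Hba-a2 were also lower, with at most 1 UMI each in members of a library. Hbb-bs stood at 510 and 646 CPM in the other NK-list cells of the female and male library. It was also scarce in B cells, at 2.73 and 3.81 CPM, and in T cells, at 3.92 and 5.70. A low level of it was thus not particular to the NK-gene members. Whether few of the other NK-list cells held these UMIs was not examined.

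T cell genes moved with this comparison. Cd3g, a chain of the T cell receptor complex, was among the 10 lowest, at 7.39 against 194 CPM in the female and 13.9 against 192 in the male library. At least 1 UMI of Cd3d, Cd3g or Trac was held by 2 of the 59 NK-gene members and 323 of the 1015 other cells (31.8%). Without these cells on either side, 29 genes were higher and 26 lower. The genes given above as higher or lower in NK-gene members stayed past 2-fold, except Cxcr6, Cd3g and Xcl1. Cxcr6 had too few UMIs to be compared, Cd3g was removed by this choice of cells, and Xcl1 was not examined in this way. Gzmc then stood at 168 CPM in the other female and 38.2 in the other male cells. The part of T cell transcripts in the comparison was not tested further.

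**Figure D4:**
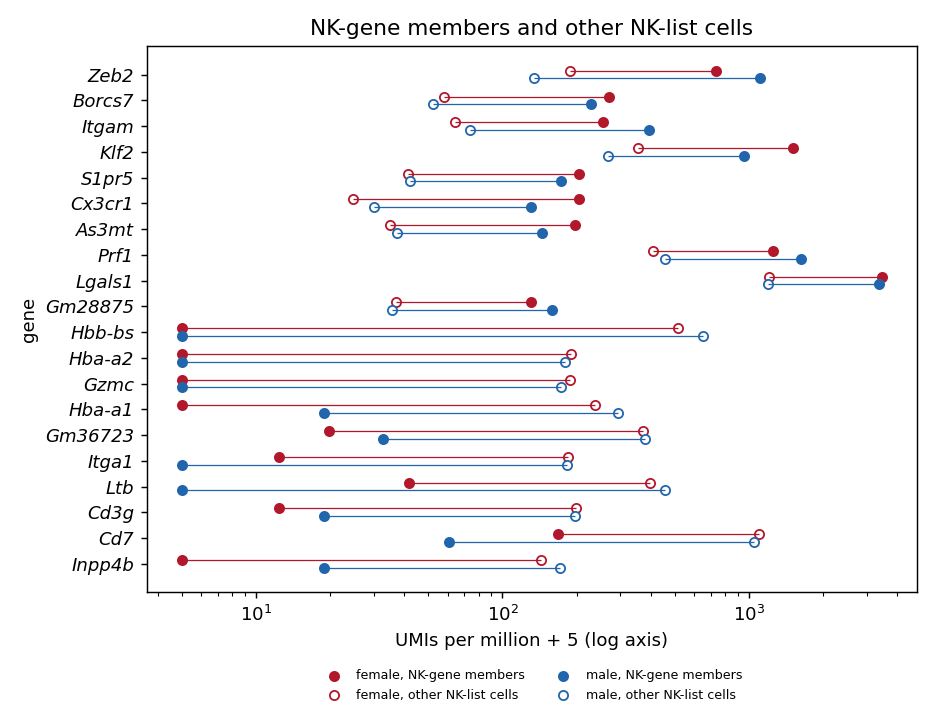
Levels in CPM, plus 5, on a logarithmic axis, of the 10 genes farthest above and the 10 farthest below in NK-gene members (filled) against other NK-list cells (open), in the female (red) and male (blue) library. Zeb2 lies at 732 and 1100 CPM in NK-gene members, against 183 and 129 in the other cells.

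Cma1 was also counted in all cells with the NK list, members or not, divided by the integrins Itgam and Itga1. This division was chosen after the comparison above was seen and uses the same cells. Since Cma1 chose the NK-gene members, the order of the shares is not independent of that choice, and they are a description with no test. Of 758 female cells, 60 held 1 UMI of Cma1, 28 held 2 and 41 held 3 or more. Of 316 male cells, 31, 13 and 18 did so. Cells with Itgam and without Itga1 held Cma1 in 57 of 145 female cells (39.3%, 31.3 to 47.8) and in 29 of 68 male cells (42.6%, 30.7 to 55.2). Cells with Itga1 and without Itgam held it in 3 of 231 (1.30%, 0.269 to 3.75) and 2 of 89 (2.25%, 0.273 to 7.88). After each cell was thinned to 1000 UMIs the shares were 21.0% (14.6 to 28.6) and 22.4% (13.1 to 34.2) with Itgam, and 0.433% (0.0110 to 2.39) and 1.12% (0.0284 to 6.10) with Itga1. Thinning left out 2 and 1 cells with Itgam, and none with Itga1.

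B cells gave thinned shares of 0.937% (0.256 to 2.38) in the female and 0% (0 to 1.81) in the male library, and T cells gave 0.161% and 0.339%, at median depths of 2186 and 1741 UMIs for B cells and 3924 and 3897 for T cells, against 3593 and 4075.5 for the cells with Itgam.

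**Figure D5:**
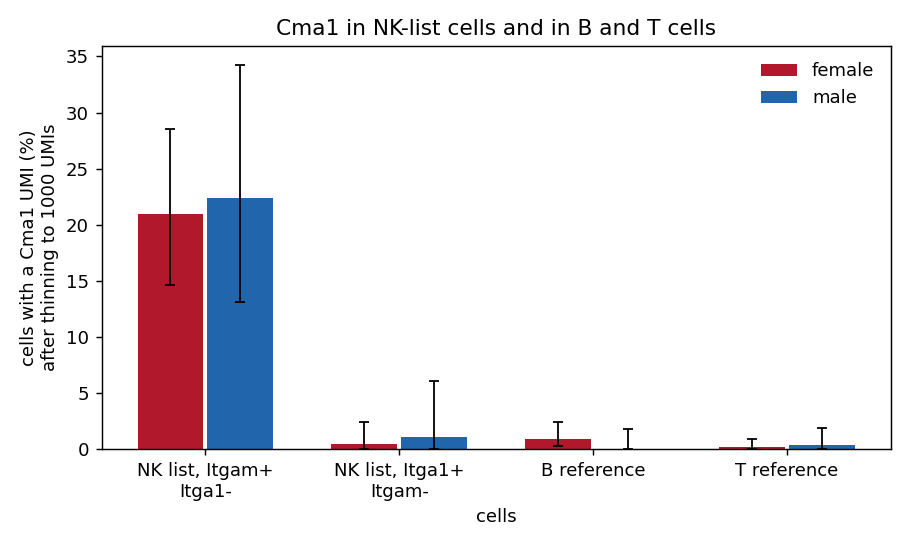
Share of cells with at least 1 UMI of Cma1 after thinning to 1000 UMIs, in percent, with exact 95% binomial intervals, for cells of the NK list with Itgam or with Itga1 and for reference B and T cells, female in red and male in blue. The 2 bars with Itgam stand at 21.0% and 22.4%, and each of the others is below 1.2%.

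Between the sexes the subset with Mcpt4, Cma1 or Tpsb2 and no Mcpt8 was compared as planned, with 59 female and 22 male cells. NK-gene members supplied 77.9% of its UMIs in the female and 88.9% in the male library, so most of this comparison was between those cells. Of 2076 genes with at least 20 UMIs and 50 CPM added, 41 were at least 2-fold higher in females (1.97%) and 29 were lower (1.4%). Without the cell that held most UMIs of the gene, 24 of the 41 and 9 of the 29 stayed past 2-fold. The counts also followed the settings, with 112 and 71 at 0.25 of the added CPM, 5 and 1 at 200 CPM, and 11 and 8 at the double minimum of UMIs. Xist was the highest, with 291 UMIs in female and 0 in male cells. Mcpt2 followed with 735 and 41 UMIs, then S100a9 and S100a8, the latter with 49 of its 52 female UMIs in female cell 25, and Tpsab1 with 35 and 1. Female cell 12 held 623 of the 735 UMIs of Mcpt2, and without it 667 CPM stood against 508, which is not past 2-fold. S100a8 and S100a9 did not pass without female cell 25. The lowest in females was Fos, with 10 UMIs against 56, through the 2 male cells named above, followed by Ccr2 with 14 and 28 and Ccl2 with 10 and 22. Without those 2 cells Fos gave 4 male UMIs and did not pass. Male cell 3 held 17 of the 22 UMIs of Ccl2, and 1 male NK-gene member held 13 of the 28 of Ccr2, and neither gene passed without that cell.

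Within the mast-gene members the ratio of female to male was 1.29 (1.10 to 1.51) for Cpa3 and 1.55 (1.33 to 1.80) for Cma1, rule genes both. It was 0.863 (0.595 to 1.28) for Kit, 0.998 (0.648 to 1.59) for Hdc and 0.671 (0.374 to 1.27) for Gata2, with intervals that include 1. Of 59 list genes outside the rule with at least 20 UMIs, the interval included 1 for 44, lay above 1 for 7 and below 1 for 8. The share over all genes was not taken for this comparison, so these counts are not read as a result about the lists. The 7 were Mcpt2, Tpsab1, Gzmb, Alox5, Ctsd, S100a8 and S100a9, and the 8 were Fos, Jun, Junb, Jund, Ier2, Egr1, Ccl2 and Stx3. Mcpt2 was 8.67-fold (6.36 to 12.1) higher in the female library, with 1290 of its 1590 female UMIs in female cells 4 and 12. Gzmb was 3.00-fold (1.40 to 7.67) and Alox5 2.82-fold (1.15 to 8.98) higher. Fos was 0.0399-fold (0.0182 to 0.0790), Junb, another immediate early gene, 0.269-fold (0.172 to 0.423) and Ccl2 0.370-fold (0.222 to 0.627). The rule genes Tpsb2, 1.97-fold (1.54 to 2.57), and Fcer1a, 6.60-fold (1.75 to 55.7), are given as a description only. So is the rule gene Mcpt8, which was lower, 0.185-fold (0.114 to 0.299), with 34 UMIs in 7 of 25 female cells and 41 in 1 of 6 male cells. The male values rest on 6 cells, and for Mcpt2, Tpsab1, Mcpt8 and Fcer1a on 1 cell each. Without the cell that held most UMIs of the gene in the library where it was higher, the interval still left out 1 for 6 of the 15, which were Mcpt2, Alox5, Ctsd, Fos, Ier2 and Junb. Female cell 13 held 47 of the 94 female UMIs of Gzmb, and without it the ratio was 1.65 (0.741 to 4.33). Male cell 3 held 17 of the 26 male UMIs of Ccl2 and 21 of the 23 of Egr1, and without it the ratios were 0.753 (0.362 to 1.76) and 1.97 (0.492 to 17.2), so that Egr1 turned. Female cell 25 held 49 of the 51 female UMIs of S100a8 and all 53 of S100a9, against 0 and 1 male UMIs.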

How the data were processed

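Single-cell RNA-seq of live CD45+ adrenal cells was deposited as 1 table of raw counts for each sex. The authors counted UMIs with Cell Ranger 4.0.0 and filtered barcodes with DropletUtils 1.4.3, per the study's methods, on mm10, per the labels. The deposited values are whole-number counts per gene and barcode, not normalized. Read length was 55 bases. The 2 groups came from the sample titles.

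Members were taken by the rule in the report. The members and gene lists were chosen with earlier results of these data known. Counts were summed over cells and given as CPM. Intervals were Clopper-Pearson for a share, Newcombe for the gap between 2 shares, Poisson for a count, and binomial given the summed count for a ratio of levels. No count model or p-value was used, since each sex had 1 library. Genes named were the 7 rule genes, list genes with at least 10 UMIs in members and, of genes past the fold, the 15 highest and 10 lowest against other cells and the 6 of each between the sexes. For the comparisons added later it was the 10 of each. Genes of the remaining lists, and Ccl6, Il6, Il13, Prss34, Il3ra, Itga2, Cxcr6, Eomes, Mcpt1 and Mcpt9 were added for their role after their values were seen. Reference B cells held at least 3 UMIs of Cd79a, Cd79b and Ms4a1 (a further gene planned for this sum is not used or reported here), T cells at least 3 of Cd3d, Cd3e, Cd3g and Trac, and group 2 innate lymphoid cells at least 3 of Gata3, Il7r and Rora with no Ncr1 or Klrb1c, all without C1q genes and without the defining genes of the others (Cd3e, Cd79a). No doublet caller entered the main values; Scrublet scores (scanpy 1.11.5) were an alternative. Other alternatives changed the mitochondrial ceiling, the rule's threshold and exclusions, the added CPM, the minimum UMIs, cell weighting, the deepest cells and the cell with most UMIs of a gene; the division by the NK list, the division by Tpsb2, their alternatives and the last of these were chosen after seeing the data. The calls and intervals were tested on simulated data. The simulation drew summed counts with counting error alone, so it does not cover genes whose UMIs lay in few cells. Python 3.11.15, numpy 2.4.6, pandas 2.3.3 and scipy 1.17.1 were used, with gene positions from GENCODE (GRCm38).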

Additional observations from a re-analysis of the deposited data

How the results depend on the processing

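Of 140 alternative values, 90 were labelled the same and 50 moved. A count was the same when it lay within a set fold of the main count. A share or a difference was the same when it lay inside the main interval. The label does not ask whether an interval reached below 0 or whether the same genes were called. Between the sexes, members with at least 10 rule UMIs gave 22 lower genes, labelled the same, of which 5 were among the main 29. In the Tpsb2 comparison the balance of higher and lower genes turned, as given below. Single genes turned when cells were left out. Without the cell with most UMIs of the gene, an alternative chosen after seeing the data, S100a8 and Tnf turned in the Tpsb2 comparison, and Egr1, Prnp and S100a9 between the sexes. Of the 98 genes higher in mast-gene members, 9 turned in at least 1 library, among them Mrgprb1, Tpsab1 and Slc6a4, and Mcpt2 turned in the Tpsb2 comparison without 2 cells. The difference in the share of members kept its direction throughout, but its interval reached below 0 with a mitochondrial ceiling of 5% (-0.0132 to 1.27), of 1.2% (-0.779 to 2.40) and with at least 5 rule UMIs (-0.0245 to 0.793). Under the ceiling of 1.2%, which left 327 female and 359 male barcodes, the shares were 0.917% and 0.279%, with 3 cells in the subset without Mcpt8, 0 in the Mcpt8 subset, 1 with both and 0 with neither, and 2 NK-gene and 2 mast-gene members. A ceiling of 5% left 13 mast-gene members and 2 cells with both. With at least 2 rule UMIs the shares were 2.62% and 1.56%, with 125 cells without Mcpt8, 6 with neither and 102 NK-gene members. With at least 5 they were 0.838% and 0.440%, with 34 and 13, and with at least 10 they were 0.629% and 0.240%, with 21 cells without Mcpt8 and 1 NK-gene member, while 29 mast-gene members remained. Placing cells by 2 UMIs and a 3-fold margin left 1 cell with both. Drawing 1000 UMIs per member left 53 without Mcpt8, 3 with both and 24 with neither. Removing the highest doublet scores removed 0 members.

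Counts past the fold also moved with the added CPM. For all members, 5 CPM in place of 20 gave 64 higher and 212 lower genes and 80 CPM gave 8 and 24, and members with at least 10 rule UMIs gave 97 higher. For mast-gene members, 80 CPM gave 33 and 44, leaving out the 5 deepest cells of each library, which left 1 male cell, gave 20 and 59 of 712 genes, and a ceiling of 5% gave 55 and 57 of 722 genes. For NK-gene members, 80 CPM gave 14 and 19. Between the sexes, adding less than 50 CPM, at 0.25 of it, gave 112 and 71, 200 CPM gave 5 and 1, and the double minimum gave 11 and 8. With and without Tpsb2, 0.25 of 50 CPM gave 44 higher and 50 lower, 200 CPM gave 9 and 5, equal weight for each cell gave 35 and 40, and the female library alone gave 26 and 29. Where values moved, the cause was not tested. The 20 genes left without the deepest cells included 16 of the 98.

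No paired analysis was possible because each sex has 1 library. The mast subset was not compared with the Mcpt8 subset of 1 cell, and its alternatives were not run. The male mast-gene values rest on 6 cells and 15922 UMIs, which limits every comparison that needs both libraries.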
